A study of Mus musculus with 40 samples.

Results

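Type B intercalated cell nuclei were 161 of the 16500 nuclei in the deposited single-nucleus table of the right kidney. They were chosen by a measured value: among the 26 of 30 classes of the authors' annotation that held at least 50 nuclei, the class named ICB had the highest Slc26a4 level in summed counts. That level was 5528 CPM (UMI counts per 1000000 UMIs of the class), and the class just outside, a class of 120 nuclei that the authors gave no cell type, had 85.9 CPM. The smallest class inside the limit on size held 50 nuclei and had 9.22 CPM. Levels of marker genes in the class are therefore a description, and tests were made only between operations, between classes in their response, and in other mice.

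All mice were male C57BL/6 of 8 to 12 weeks. Their left kidney was removed (unilateral nephrectomy, UNx) or they had a sham operation that left it in place, and the right kidney was taken. Nuclei came from 4 mice at 24 h, 2 sham and 2 UNx. A piece of kidney gave the nuclei, which were sorted by DAPI stain and read at the 3′ end of transcripts, and no cell type was selected. Bulk polyadenylated RNA came from kidney cross-sections of 36 other mice taken at 24, 48 or 72 h, with 6 per operation and time. The labels name a separate mouse for each sample.

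Intercalated cells are the acid-base cells of the connecting tubule and collecting duct. Type A cells secrete acid through a vacuolar proton pump on the side of the urine and return bicarbonate to the blood through the anion exchanger Slc4a1. Type B cells secrete bicarbonate in exchange for chloride through pendrin, the product of Slc26a4, and take part in salt reabsorption and in the response to an alkaline load. In type B cells the exchanger Slc4a9 and a proton pump lie on the side of the blood.

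Promoter windows of 3 marker genes are printed because Slc26a4 and Hmx2 lead the class and Oxgr1 was among the markers lower in bulk kidney at 24 h. Each window is the 250 bases before the transcript start in the RefSeq table of GRCm38.p6, read 5′ to 3′ on the strand of the gene. Capitals mark TATAAA, searched on both strands. The windows are chr12:31559985-31560234 on the minus strand for Slc26a4, chr7:131548507-131548756 on the plus strand for Hmx2 and chr14:120042436-120042685 on the minus strand for Oxgr1.
Slc26a4: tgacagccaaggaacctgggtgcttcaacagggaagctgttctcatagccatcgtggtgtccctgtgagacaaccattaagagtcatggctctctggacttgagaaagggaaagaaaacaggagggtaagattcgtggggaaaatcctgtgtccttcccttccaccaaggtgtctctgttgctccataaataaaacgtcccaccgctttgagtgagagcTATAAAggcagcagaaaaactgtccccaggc
Hmx2: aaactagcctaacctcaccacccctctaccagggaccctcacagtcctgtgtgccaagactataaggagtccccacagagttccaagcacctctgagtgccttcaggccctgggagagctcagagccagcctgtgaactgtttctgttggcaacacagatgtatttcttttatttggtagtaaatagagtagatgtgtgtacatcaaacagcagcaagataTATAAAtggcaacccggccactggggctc
Oxgr1: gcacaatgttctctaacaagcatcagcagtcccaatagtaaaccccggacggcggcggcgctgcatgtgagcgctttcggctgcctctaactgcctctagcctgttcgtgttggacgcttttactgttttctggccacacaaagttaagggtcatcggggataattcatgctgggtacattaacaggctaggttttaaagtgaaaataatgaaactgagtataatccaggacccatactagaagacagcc
The motif began 31 bases before the start in Slc26a4 and 29 bases before it in Hmx2, and was not in the Oxgr1 window. A second start of Hmx2 in the table, with the window chr7:131554043-131554292, did not hold it. Of all 32851 promoter windows of that length 12.4% held TATAAA. Among the 20 leading genes of the class, described next, 14 had a window and 2 of these held it. The letters TGTTTA, the core bound by forkhead factors such as Foxi1, were in none of the windows printed, in 3 of the 14 and in 12.0% of all windows. For both motifs a leading gene was counted if any of its windows held the letters, while the percentages are over single windows. The counts and percentages are therefore not like measures. A match is a run of letters and not a measured site.

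Before the results, the 4 nucleus libraries are set side by side. By the labels, sham 1 and UNx 1 belong to batch 3 and sham 2 and UNx 2 to batch 4, and the batches stood apart. Within the class the median share of mitochondrially encoded UMIs was 0.688% and 1.04% in the batch 3 mice, against 5.10% and 7.57% in the batch 4 mice. The summed level of the 8 proximal tubule markers in the class was 3244 and 4582 CPM in batch 3 against 11231 and 12497 CPM in batch 4, and that of the 4 thick ascending limb markers was 200 and 218 CPM against 3596 and 3702 CPM. All 12 of those markers had UMIs in the class. Summed markers of principal cells ran from 72.8 to 297 CPM over the mice, of endothelial cells from 5.25 to 291, of podocytes from 5.25 to 105, of immune cells from 18.4 to 94.3 and of fibroblasts and mural cells from 0 to 29.5 CPM, each highest in a batch 4 mouse. Their part in the results was not tested, but the counts of calls over all genes are given with and without nuclei of mixed markers. Nuclei with mixed markers, here those with over 0.3% of their UMIs from any 1 of Slc12a1, Slc12a3, Slc8a1 and Slc34a1, were 1 of 25, 19 of 45, 1 of 52 and 11 of 39 in sham 1, sham 2, UNx 1 and UNx 2. Each group had 1 mouse in each batch. Of all nuclei, 18 barcodes occurred in 2 libraries, none of them in the class.

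The class held 25 and 45 nuclei in the sham mice and 52 and 39 in the UNx mice. Their UMIs summed to 190471, 693146, 467166 and 611106, with medians per nucleus of 7227, 11680, 8810 and 9572, so sham 1 was the shallowest sum. Type B nuclei made up 0.468% of the nuclei of sham 1 (95% Clopper-Pearson interval 0.303 to 0.690), 1.70% of sham 2 (1.25 to 2.27), 1.01% of UNx 1 (0.755 to 1.32) and 1.16% of UNx 2 (0.825 to 1.58). Both UNx mice lay between the shams. Of type A and type B nuclei together, type B were 17.6%, 61.6%, 34.7% and 43.8%, again with the UNx mice between the shams. The ratio of the UNx mean share to the sham mean share was 0.998 over all nuclei, while the SD of the shams was 0.805 of their mean. An exact two-sided permutation test of 2 mice against 2 cannot go below a p of 0.33, so the shares could not pass, and the intervals cover counting error only.

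The given markers fitted the label. Slc26a4 (ENSMUSG00000020651.8, GRCm38 chr12:31519827-31559969, minus strand) had UMIs in 161 of 161 nuclei, at 7062 and 4085 CPM in the sham mice and 8429 and 4470 CPM in the UNx mice. The class held 87.1% of all Slc26a4 UMIs in the table. Slc4a9 was also found in every nucleus, at 3475, 2321, 5633 and 1853 CPM in the same order of mice. Insrr, a receptor tyrosine kinase that responds to alkaline pH outside the cell (GRCm38 chr3:87796951-87816101), was found in 159 nuclei, at 845, 671, 883.7 and 504 CPM, and 76.3% of its UMIs lay in the class. For each of the 3 markers the groups overlapped, and in each of them both batch 4 mice were lower than both batch 3 mice. Without mixed nuclei this order of batches held for Slc26a4 only. Sham 2 then stood above sham 1 for Slc4a9 (4169 against 3632 CPM) and Insrr (1152 against 863 CPM).

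Single nuclei spread widely around these sums. Slc26a4 ran from 107 to 19696 CPM with a median of 6384 and a middle range of 3684 to 9463 CPM. Slc4a9 ran from 209 to 12434 CPM with a median of 3736, and Insrr from 0 to 2629 CPM with a median of 763. No nucleus was thus without either exchanger. After each nucleus was thinned to 1500 UMIs, which left out none, 96.3% of type B nuclei still had a Slc26a4 UMI, against 0.341% of type A, 1.13% of cortical principal and 1.41% of proximal tubule S1 nuclei. Unthinned, the shares were 100%, 4.78%, 3.16% and 9.83%, at median depths of 9224, 6937, 6288 and 10874 UMIs. Principal and proximal tubule cells should lack the gene, so their shares serve as a background. Whether stray RNA or mixed nuclei gave these UMIs was not tested.

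The other markers of the class separated it from type A to different degrees. Thinned shares of nuclei with an Insrr UMI were 64.6% in type B and 5.12% in type A nuclei, and those for Hmx2, a homeobox transcription factor, were 19.9% and 0.341%. Slc4a9 was not limited to type B: its thinned share was 91.9% in type B and 57.0% in type A, against 0.903% in principal nuclei. Sctr, the secretin receptor, stood at 19.9% and 10.6%. Oxgr1, the receptor for alpha-ketoglutarate, stood at 34.2% and 36.9%, so that this marker did not set the classes apart.

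Markers of type A cells were far lower in the class than in type A nuclei, and not all were at background. Slc4a1 was at 2.29 CPM in type B against 215 CPM in type A nuclei, and its thinned shares were 0.621% and 27.0%. Slc26a7, another anion exchanger, and the transcription factor Dmrt2 had 2 UMIs each over the whole class, which is under the limit of 3 counts, or 1.53 CPM, and stood at 308 and 235 CPM in type A. Kit, a receptor tyrosine kinase, and Adgrf5, an adhesion receptor, were at 58.4 and 75.4 CPM in type B against 713 and 1635 CPM in type A. Their thinned shares in type B were 6.21% for Kit and 9.32% for Adgrf5, above the 0% and 2.48% in principal nuclei. The summed level of the 6 type A markers ran from 89.3 to 203 CPM over the type B mice.

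The machinery shared by both cell types was present in each, at levels that differed between batches. Atp6v0d2, a pump subunit of intercalated cells, stood at 1827, 617, 2082 and 724 CPM in type B nuclei of sham 1, sham 2, UNx 1 and UNx 2, and at 1533, 538, 1385 and 534 CPM in type A nuclei of the same mice. Batch 4 was lower in both classes. Batch 4 also gave a larger share of the type B nuclei than of the type A nuclei, so levels pooled over mice, as given next, mix class with batch. Of the 24 vacuolar proton pump genes only Atp6v1e2 had no UMI in the class. Car2, the cytosolic carbonic anhydrase, was at 554 CPM in type B and 676 in type A, and the ammonia channels Rhcg and Rhbg at 410 and 62.4 against 564 and 149 CPM. The membrane-bound Car12 was at 1696 against 645 CPM, and Casr, the calcium-sensing receptor, at 167 against 29.6 CPM. Of the Notch ligands, Jag1 was at 161 CPM in type B and 44.8 in type A, and Dll1 at 23.4 and 3.57 CPM. Casr, Jag1 and Dll1 were chosen after their values were seen and did not lead their lists. The transcription factors Foxi1 and Tfcp2l1, both needed for intercalated cells, were at 74.5 and 1125 CPM in type B and 57.9 and 1882 CPM in type A.

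**Figure D1:**
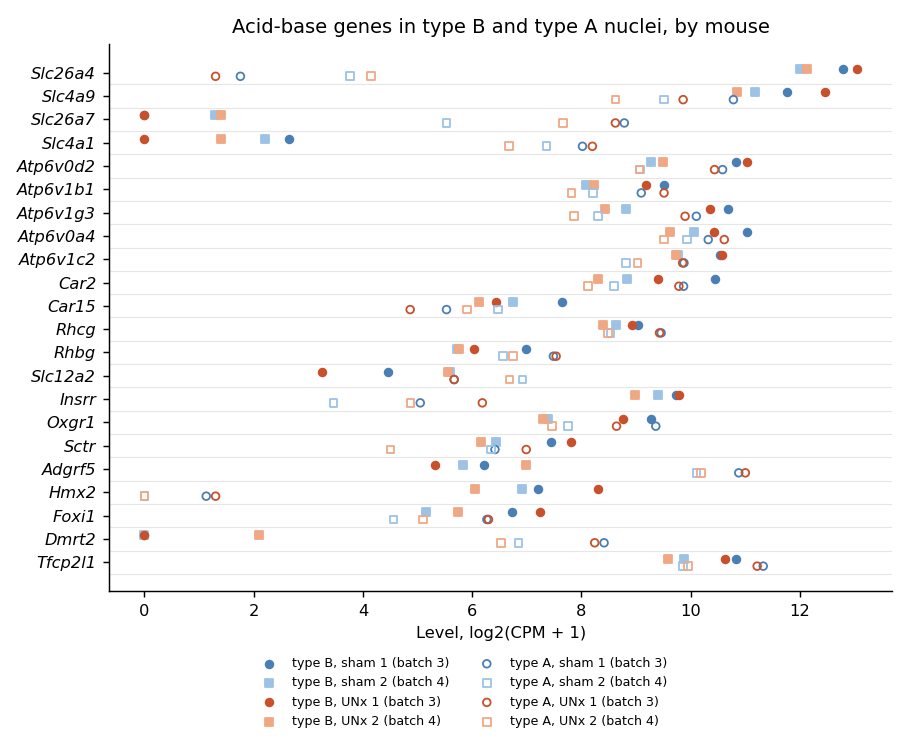
Levels of 22 acid-base genes as log2(CPM + 1) in the summed type B nuclei (filled symbols) and type A nuclei (open symbols) of each of the 4 mice, circles for batch 3 and squares for batch 4, blue for sham and red for UNx. Slc26a4, Insrr and Hmx2 lie to the right in type B, Slc4a1, Slc26a7, Adgrf5 and Dmrt2 in type A, while the proton pump genes of both classes lie close together.

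The 20 genes with the largest ratio of their level in the class to that in the next highest class were led by Slc26a4, at 64.4 times. Lsamp, a cell adhesion protein, followed at 58.0 times (5475 CPM against 94.3 CPM), then Hmx2 at 22.6 times (GRCm38 chr7:131548773-131558014). Kcnq3 and Cacna1e encode subunits of voltage-gated channels for potassium (22.6 times) and calcium (5.64 times). Others act in insulin and kinin signalling: Irs1, the insulin receptor substrate, was at 831 CPM and 3.31 times the next class, and the bradykinin receptor Bdkrb2 at 36.8 CPM and 3.65 times. The rest were Insrr, Tmem163, Hs3st5, Syt7, Col24a1, Rp1, Chl1, Mmd2, Pkib, Stap1, Aldh1l2, Fam221a and Nbea, with ratios from 17.9 for Insrr down to 3.21 for Nbea.

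Leading genes differed in how many nuclei carried them. Lsamp was found in 160 nuclei, Tmem163, a zinc transporter, in 152 and Rp1, a microtubule-associated protein, in 144. Kcnq3 was found in 32 nuclei and Hs3st5, a heparan sulfate sulfotransferase, in 24. Levels of such genes varied widely over mice: Kcnq3 ran from 5.25 CPM in sham 1, where it had 1 UMI, to 246 CPM in UNx 2. Across the 26 classes the genes whose log2(CPM + 1) was most like that of Slc26a4 were Lsamp (Pearson r 0.923), Hmx2 (0.829), Cacna1e (0.813), Insrr (0.809) and Kcnip1 (0.778). These correlations share libraries and rest largely on 1 class, and are a description.

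**Figure D2:**
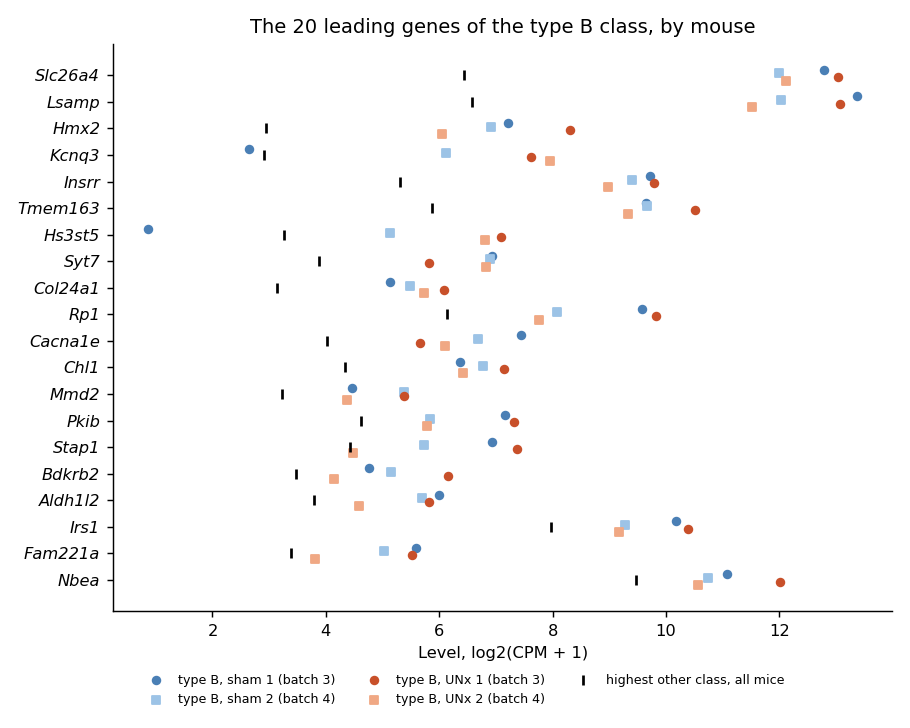
Levels of the 20 leading genes as log2(CPM + 1) in the type B nuclei of each mouse, circles for batch 3, squares for batch 4, blue for sham and red for UNx, with a black bar at the highest other class over all mice. Slc26a4 and Lsamp lie farthest right, and the sham 1 symbols of Kcnq3 and Hs3st5 lie left of the bar.

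The next question was which genes of type B nuclei differed between UNx and sham kidneys at 24 h. In edgeR's quasi-likelihood test on counts summed per mouse, 0 of 8228 tested genes (0%) passed an adjusted p of 0.05. The lowest adjusted p was 0.999886, 30 genes had an unadjusted p under 0.05, and the DESeq2 Wald test also called 0, with 18 under 0.05 unadjusted. With the batch as a block, which the labels allow because same-numbered mice share a batch, edgeR called 52 genes (0.632%), 38 higher and 14 lower in UNx, on 1 residual degree of freedom. Of these 52, 15 had no overlap between the groups (6 higher, 9 lower), and in 30 the groups overlapped with UNx 2 highest. Over all genes tested, 9.69% had both UNx mice above both shams and 11.2% had both below. Leaving out the 32 mixed nuclei, an alternative chosen after seeing the data, left 17 calls with the block (15 higher, 2 lower), of which 14 were among the 52.

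None of the markers of the class was called, with or without the block. Slc26a4 differed by 0.22 on the log2 scale (SE 0.76, and SE 0.23 around 0.22 with the block). The difference was 0.37 (SE 0.75) for Slc4a9, −0.11 (SE 0.45) for Insrr, 0.52 (SE 0.75) for Hmx2, 0.20 (SE 0.67) for Sctr and −0.39 (SE 0.80) for Oxgr1. Of the 6 type B markers 4 lay above 0 and 2 below, none without overlap between groups, and their median was 0.21 beside 0.02 over all genes tested. Leaving out single mice changed the sign of every one of these markers at least once.

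By a rule that took the 10 lowest p in each direction among genes of at least 100 CPM without overlap, the first gene above sham was Rorb, a retinoid-related orphan nuclear receptor (GRCm38 chr19:18930605-19111196). Among all tested genes, both UNx mice lay above both shams for 797 (9.69%) and below both for 923 (11.2%), so a lack of overlap alone is common here. Rorb stood at 21.0 and 59.2 CPM in the sham mice and at 317 and 115 CPM in the UNx mice, a log2 difference of 2.32 (SE 0.71). Differences of the genes named here are from the fit without the block unless the block is named. With the block Rorb differed by 1.92 (SE 0.34, adjusted p in edgeR 8.65e-06). Its UMIs came from 2, 8, 9 and 10 nuclei, and 1 nucleus held 26.6% of them, so few nuclei carried the difference.

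Sgcd, which encodes delta-sarcoglycan (GRCm38 chr11:46896253-47988969), was at 14.1 and 95.7 CPM in sham and 595 and 214 CPM in UNx, a log2 difference of 2.75 (SE 0.90). Its adjusted p with the block in edgeR was 1.89e-11, and 56 nuclei had a UMI. These were 4 of 25, 20 of 45, 15 of 52 and 17 of 39 nuclei in sham 1, sham 2, UNx 1 and UNx 2. The shares of nuclei with a UMI thus overlapped between the groups. Kcnq3, the potassium channel subunit among the leading genes (GRCm38 chr15:65986387-66286642), was at 5.25 and 68.3 CPM in sham and 195 and 246 CPM in UNx, a difference of 2.44 (SE 0.89). Its adjusted p with the block in edgeR was 1.46e-09, and in UNx 1 a single nucleus held 56.0% of its UMIs. Kcnq3 UMIs came from 1, 11, 11 and 9 nuclei in the same order of mice, and these shares also overlapped between the groups. Hs3st5, also a leading gene, below the level the rule asked for and added after its values were seen (GRCm38 chr10:36506814-36834397), was at 0.826, 34.2, 134 and 112 CPM, a difference of 2.54 (SE 0.99), and was called with the block in edgeR (adjusted p 6.07e-06). All 4 of these genes were called with the block also without the mixed nuclei, with adjusted p in edgeR of 0.0150 for Rorb, 0.00234 for Sgcd, 0.0117 for Kcnq3 and 0.00129 for Hs3st5. Leaving out each mouse in turn gave 1.46 to 3.33 for Rorb, 1.88 to 4.65 for Sgcd and 1.74 to 5.33 for Kcnq3, in each case above 0, with the Sgcd and Kcnq3 maxima without sham 2. In sham 1, the shallowest sum, the limit of 3 counts is 15.8 CPM. Sgcd, Kcnq3 and Hs3st5 lay below it there, with 2.68, 1 and 0.157 UMIs. The size of their differences therefore rests in part on levels under that limit.

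UMIs of Rorb, Sgcd, Kcnq3 and Hs3st5 lay partly in the same nuclei, which was looked at after their values were seen. Of the 29 nuclei with a Rorb UMI, 27 had a Sgcd UMI, 17 a Kcnq3 UMI and 15 a Hs3st5 UMI. Among the 132 nuclei without one, the numbers were 29, 15 and 9. Summed levels in the 29 nuclei were 820 CPM for Sgcd, 413 for Kcnq3 and 294 for Hs3st5, against 51.7, 59.2 and 7.43 CPM in the rest. The 29 nuclei were deeper, with a median of 11680 UMIs against 8828, and all 29 had Slc26a4, at 4259 CPM against 5951. They occurred in all mice, as 2 of 25, 8 of 45, 9 of 52 and 10 of 39 nuclei, and these shares overlapped between the groups. Pooled over mice, Rorb was at 134 CPM in type B and 156 CPM in type A nuclei.

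The other named genes above sham were Entpd5, a nucleotidase of the endoplasmic reticulum, Maml2, a Notch coactivator, Kat2b, an acetyltransferase, the peptide transporter Slc15a2, Tbl1x, Ripor2 and Fam214a. Entpd5 stood at 68.8, 78.0, 117 and 143 CPM, a log2 difference of 0.86 (SE 0.36). Maml2 stood at 194, 219, 338 and 354 CPM, a difference of 0.77 (SE 0.33). Neither passed with the block, at adjusted p in edgeR of 0.371 and 0.214. Among the other 5 the differences ran from 0.65 for Fam214a to 0.98 for Ripor2, and none passed in either fit with all nuclei. Slc15a2 passed only with the block and without mixed nuclei (adjusted p in edgeR 0.0287).

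Hs6st3, a heparan sulfate sulfotransferase like Hs3st5 (GRCm38 chr14:119138341-119869815), stood below sham, at 879 and 170 CPM in sham and 91.3 and 107 CPM in UNx, a log2 difference of −2.34 (SE 0.84). Its adjusted p with the block in edgeR was 5.85e-09, and 0.000940 without mixed nuclei. Sham 1 was far above the other 3 mice, and without it the difference was −0.72. Tafa1, a secreted chemokine-like protein, stood at 424 and 84.9 CPM in sham and 62.5 and 41.0 CPM in UNx, a difference of −2.26 (SE 0.84). It was called with the block in edgeR (adjusted p 2.62e-06, and 5.63e-05 without mixed nuclei), and without sham 1 its difference was −0.69. Both genes were thus lower mainly against sham 1. They also stood lower in the nuclei with a Rorb UMI, at 21.0 and 16.8 CPM against 260 and 126 CPM in the rest.

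Calb1, the calcium-binding protein calbindin of the connecting tubule, stood at 242 and 139 CPM in sham and 19.3 and 69.5 CPM in UNx. It was called lower with the block (log2 difference −1.94, SE 0.34, adjusted p in edgeR 8.65e-06). Without the block the difference was −2.02 (SE 0.72) and it was not called. In sham 1, however, 91.3% of its UMIs lay in a single nucleus, and without mixed nuclei it stood at 23.0, 82.6, 20.0 and 48.4 CPM and was not called (adjusted p 0.998). Slc8a1, the sodium-calcium exchanger of the same segment, stood at 2896, 859, 124 and 692 CPM and was called lower with the block (adjusted p in edgeR 5.19e-11). In sham 1 a single nucleus held 93.9% of its UMIs. It was not called without mixed nuclei (adjusted p in edgeR 0.992). Slc8a1 is itself among the genes that define mixed nuclei. Leaving these out removes the nuclei with its highest shares by definition and is no check on its call. The summed level of the 5 connecting tubule markers was 3442 and 1833 CPM in sham and 291 and 1240 CPM in UNx, with none of the 5 at 0 over the class. Of the 4 of them tested, 4 lay below 0 and 2 were called with the block, where 0.632% of all genes were.

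The remaining genes named as below sham were Pip5k1b, a lipid kinase, Spp1, the secreted osteopontin, the adhesion protein Sdk1, the sialyltransferase St3gal6, Igfbp5, which binds insulin-like growth factors, Fkbp5, a target of glucocorticoids, and Wnk4, a kinase that regulates salt transport. Spp1 stood at 305, 243, 154 and 136 CPM, a log2 difference of −0.89 (SE 0.34). Igfbp5 stood at 530, 424, 297 and 227 CPM, a difference of −0.84 (SE 0.36), and Wnk4 at 126, 134, 68.5 and 80.5 CPM, a difference of −0.78 (SE 0.35). Of these 7 genes none was called in either fit.

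**Figure D3:**
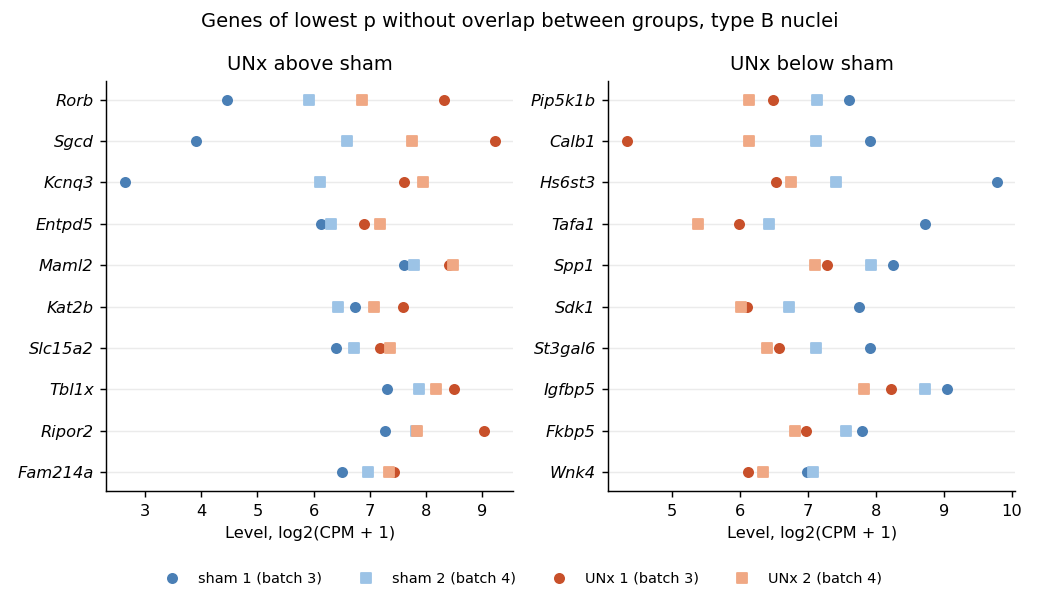
Levels as log2(CPM + 1) of the 20 genes named by the rule in the type B nuclei of each mouse, circles for batch 3, squares for batch 4, blue for sham and red for UNx, UNx above sham on the left and below on the right. For Rorb, Sgcd, Kcnq3, Hs6st3 and Tafa1 the sham 1 symbol lies farthest from the UNx mice.

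Immediate early genes, which respond within minutes to stimulation or handling, all lay on 1 side where tested. Of 16 genes 7 were tested, all 7 lay below 0 (median −0.38 beside 0.02 over all genes tested), and 2 were called lower with the block, where 0.632% of all genes were called. Egr1 stood at 73.5 and 26.0 CPM in sham and 2.14 and 4.09 CPM in UNx, from 14 and 18 UMIs against 1 and 2.5, and its adjusted p with the block in edgeR was 0.00181. Ier3 stood at 89.3 and 47.6 CPM in sham and 30.0 and 9.82 CPM in UNx (adjusted p with the block in edgeR 0.0366). Without mixed nuclei both genes were too low to be tested, and the groups overlapped for each. Egr1 then stood at 80.6 and 7.51 CPM in sham and 2.22 and 7.80 CPM in UNx. Ier3 stood at 86.4 and 24.4 CPM in sham and 26.6 and 9.36 CPM in UNx. Fos stood at 42.0, 11.5, 4.28 and 3.27 CPM, from few UMIs, and was below the limit for testing.

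The pathway lists of acid-base transport held no call in either fit. Of the 21 vacuolar proton pump genes tested 10 lay above 0 and 11 below, with a median of −0.05. Of the 16 anion exchange and bicarbonate genes tested 8 lay on each side. Of the 10 carbonic anhydrase and ammonia genes tested 8 lay below 0, with a median of −0.66. In that list Car15 stood at 200 and 106 CPM in sham and 85.6 and 68.7 CPM in UNx (log2 difference −0.94, SE 0.45), and Car5b and Car8, with 31.1 and 28.5 UMIs over the class, likewise had both UNx mice below both shams, as 11.2% of all genes did. Car2 stood at 1397, 454, 672 and 316 CPM, a difference of −0.89 (SE 0.70) with overlapping groups. Without mixed nuclei Car15 stood at 207, 106, 88.8 and 103 CPM, still without overlap.

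Other lists gave like counts. Receptors and regulators had 12 of 26 tested genes above 0, intercalated transcription factors and Notch genes 9 of 12, cholesterol synthesis 12 of 19, the nuclear-encoded respiratory chain 14 of 35, circadian genes 7 of 12 and glucocorticoid and aldosterone targets 5 of 10, with no call in either fit. Cholesterol genes had a median of 0.15. Only 2 of 28 cell cycle genes and 4 of 12 tubular injury genes were high enough to test, and Havcr1, the kidney injury molecule, had no UMI in any type B nucleus, which allows up to 1.53 CPM.

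Whether type B nuclei responded differently from type A nuclei was tested by the interaction of class and operation, with the mouse as a block. In edgeR 0 of 9683 genes (0%) passed, 275 had an unadjusted p under 0.05 and the lowest adjusted p was 0.428. In the same fit the count was 36 without UNx 2, 7 without UNx 1, 4 without sham 1, and 0 without sham 2 or without mixed nuclei. With the batch also interacting, 21 genes (0.217%) passed, 16 with the higher UNx effect in type B, and 11 passed without mixed nuclei. Slc4a9 differed by 0.37 in type B and −0.92 in type A nuclei, a difference of 1.14 (SE 0.28, adjusted p in edgeR 0.999). Insrr differed by −0.11 and 1.17, a difference of −1.23 (SE 0.44, adjusted p in edgeR 0.999). Neither the marker exchanger nor the alkali receptor therefore passed the test of a class difference.

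In bulk kidney the markers could be tested in mice that had no part in choosing the class. There a level is relative to the RNA of all cells. Fewer cells of a type, less RNA per cell and more RNA of other cells cannot be told apart. Bulk depth, in units of 1000000 estimated counts, was 14.9 to 24.1 per library, and values are CPM scaled with TMM factors. At 24 h, 2 of the 5 type B markers tested were called in edgeR, both lower, where 27.3% of all tested genes were called. At 48 h it was 1 of 5, lower, where 32.9% were called, and at 72 h 0 of 6, where 1.71% were called.

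Slc26a4 at 24 h ranged over the 6 shams from 32.1 to 39.6 CPM around a median of 37.0 and over the 6 UNx mice from 27.9 to 33.4 CPM around a median of 31.9. The groups overlapped by the lowest sham, and all 6 UNx mice were below the sham mean. The means were 36.5 ± 2.72 and 31.3 ± 2.21 CPM (SD, n = 6), and the log2 difference of −0.22 (SE 0.06) passed in edgeR with an adjusted p of 0.0168. At 48 h the shams ranged from 38.7 to 54.8 CPM and UNx from 26.4 to 39.6 CPM, with means of 46.8 ± 6.70 and 30.8 ± 5.07 (SD, n = 6) and a difference of −0.60 (SE 0.11, adjusted p in edgeR 0.00195). At 72 h the means were 55.5 ± 8.37 and 47.7 ± 5.22 CPM (SD, n = 6), a difference of −0.22 (SE 0.10, adjusted p in edgeR 0.297) that was not called. The Slc26a4 mean thus stood lower in UNx at each time and the difference passed at 24 and 48 h.

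The share of mitochondrially encoded counts also differed between groups in the same libraries, but not in 1 direction. UNx libraries stood lower at 24 h with overlap, and UNx replicates 1 to 5 stood higher at 48 h. At 72 h the groups overlapped, at 13.6% to 15.2% in sham and 14.2% to 16.1% in UNx libraries. At 24 h the share was 23.5% to 26.7% in sham and 21.5% to 24.9% in UNx libraries. At 48 h it was 14.0% to 15.5% in sham, 25.8% to 26.4% in UNx replicates 1 to 5 and 15.2% in UNx replicate 6, and that replicate had the highest Slc26a4 of its group, at 39.6 CPM. With this share as a covariate Slc26a4 differed by −0.21 at 24 h (adjusted p in edgeR 0.215) and by −0.24 at 48 h (adjusted p in edgeR 0.621), and without UNx replicates 1 to 5 it differed by −0.24 at 48 h (adjusted p in edgeR 0.598). In these fits the calls over all genes were 609 of 14599 at 24 h, and 0 of 15149 and 0 of 15605 at 48 h, so the lack of a call at 48 h is not particular to Slc26a4.

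Oxgr1 was the second marker lower at 24 h. Its shams ranged from 25.7 to 32.9 CPM and its UNx mice from 21.3 to 29.6 CPM, and 5 of 6 UNx mice were below the sham mean. The means were 29.4 ± 2.74 and 24.6 ± 2.83 CPM (SD, n = 6), a log2 difference of −0.26 (SE 0.08, adjusted p in edgeR 0.0273). At 48 h the difference was 0.02 (SE 0.14) and at 72 h −0.28 (SE 0.09, adjusted p in edgeR 0.134), so it was not called later. Type A nuclei carried Oxgr1 too, at 656.5, 216, 398.5 and 175 CPM over the mice against 614, 166, 435 and 155 CPM in type B, so its bulk level is not a measure of type B cells alone. With the mitochondrial share as a covariate the 24 h difference was −0.08 (adjusted p in edgeR 0.677).

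Slc4a9, Insrr and Hmx2 were called at no time in bulk. Slc4a9 was at 28.5 ± 5.27 CPM in sham and 27.4 ± 3.22 in UNx at 24 h (SD, n = 6), and its differences over the 3 times were −0.05, −0.14 and −0.17. Insrr was at 15.6 ± 2.10 and 15.8 ± 1.57 CPM at 24 h (SD, n = 6), with differences of 0.01, −0.17 and −0.11. Hmx2 was lower still, at 3.36 ± 0.590 and 3.24 ± 0.572 CPM (SD, n = 6), with differences of −0.06, 0.12 and −0.09. At 72 h, where no type B marker passed in edgeR, 6 of 6 lay below 0 with a median of −0.14 beside −0.00415 over all genes tested, 1 had an unadjusted p under 0.05, and the DESeq2 Wald test called 0.

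**Figure D4:**
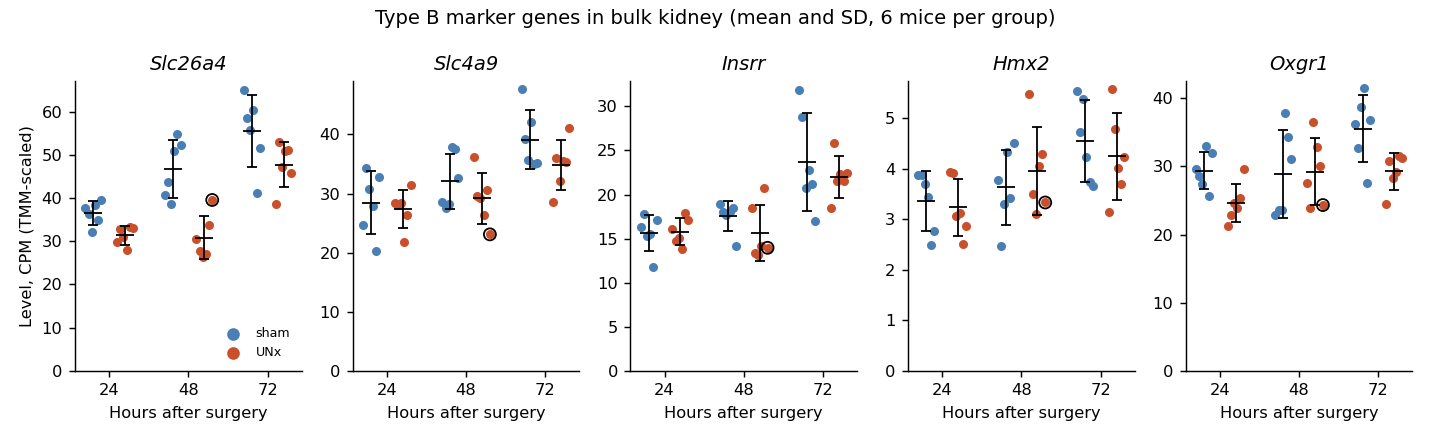
Levels of 5 type B marker genes in bulk kidney, in TMM-scaled CPM from 0, at 24, 48 and 72 h after sham operation (blue) or UNx (red), each point 1 mouse with the group mean and SD in black (6 mice per group). UNx replicate 6 at 48 h, whose mitochondrial share was like that of the shams, is ringed, and Slc26a4 of UNx lies lower than sham at 24 and 48 h.

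Of the 20 leading genes, 14 were high enough to test in bulk at 24 h and 17 at 48 and at 72 h. Slc26a4 was the only call at 24 h, where 27.3% of all genes were called, with 10 of the 14 below 0. At 48 h, where 32.9% of all genes were called, 3 of the 17 were, all lower: Slc26a4, Irs1 (15.3 ± 1.19 against 11.8 ± 1.96 CPM, SD, n = 6, log2 difference −0.38, adjusted p in edgeR 0.0132) and Nbea, a large scaffold protein of vesicle traffic (19.9 ± 1.97 against 14.0 ± 1.73 CPM, SD, n = 6, −0.50, adjusted p in edgeR 0.00153). Neither was called with the mitochondrial share as a covariate or without UNx replicates 1 to 5, where no gene was. Both genes are also expressed in other classes, Nbea at 705 CPM and Irs1 at 251 CPM in the next highest. At 72 h, where 1.71% of all genes were called, none of the leading genes was called in edgeR. Of these, 1 had an unadjusted p under 0.05 and the DESeq2 Wald test called 0. The lowest p was that of Lsamp, with a difference of −0.76 (SE 0.23, adjusted p in edgeR 0.109).

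For comparison, type A markers in bulk were called lower for 1 of 6 at 24 h (Kit), 3 of 6 at 48 h (Kit, Adgrf5 and Slc26a7) and 2 of 6 at 72 h (Kit and Dmrt2), and none was called higher, where 27.3%, 32.9% and 1.71% of all genes were called. With the mitochondrial share as a covariate none of them was called at any time. Genes of both intercalated types went in both directions: at 24 h Car2 rose from 292 ± 26.5 to 398 ± 20.7 CPM (SD, n = 6, log2 difference 0.45, adjusted p in edgeR 0.000294). Car15, Tfcp2l1 and Rhbg were also called higher at 24 h, and the pump subunit Atp6v0d2 lower, from 39.1 ± 3.97 to 29.9 ± 3.19 CPM (SD, n = 6, −0.39, adjusted p in edgeR 0.00258). With the mitochondrial share as a covariate, where 609 of 14599 genes were called, Car2 kept its call at 0.43, while Car15, Tfcp2l1 and Rhbg stood at 0.34, 0.35 and 0.55 and Atp6v0d2 at −0.17 without one.

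Of the genes named from the nuclei, 17 were high enough in bulk at 24 h and 5 were called there, a share near the 27.3% of all genes. Rorb, Sgcd, Kcnq3, Hs3st5 and Hs6st3 fell below the filter on low counts, with at most 26 counts in any library, and Tafa1 was not analysed in bulk. Entpd5 was called higher, as its nuclei stood (0.23, adjusted p in edgeR 0.0247), and Wnk4 lower, as in the nuclei (−0.28, adjusted p in edgeR 0.0107). Calb1 and Ier3 went the other way in whole kidney: Calb1 rose from 164 ± 25.8 to 261 ± 46.6 CPM (SD, n = 6, 0.67, adjusted p in edgeR 0.00137), and Ier3 from 13.6 ± 4.17 to 21.5 ± 4.16 CPM (SD, n = 6, 0.66, adjusted p in edgeR 0.0131). Tbl1x was called lower in bulk (−0.16, adjusted p in edgeR 0.0282) and stood higher in the nuclei. With the mitochondrial share as a covariate Calb1 and Ier3 kept their calls and Entpd5, Wnk4 and Tbl1x did not. These genes are expressed in many classes, and whole kidney does not show which of them moved.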

How the data were processed

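The nucleus table holds estimated UMI counts per gene and nucleus, deposited by the authors, with the class names of the authors' deposited annotation. Per the submitters' processing notes, alevin and Seurat with mm10 were used for the nuclei, and FastQC 0.11.8, Salmon 1.5.0 and GRCm39 for the bulk libraries, whose values are estimated counts deposited by the authors. Of the UMI values above 0 in the class, 15.3% were not whole. How nuclei were filtered and doublets treated is not given in the sources used here, no nucleus had under 1755 UMIs, and no doublet caller was run.

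The members and gene lists were chosen with earlier results of these data known. Counts of the class were summed per mouse, rounded, filtered on low counts and tested with edgeR 4.0.16 in R 4.3.3 (quasi-likelihood, TMM factors, Benjamini-Hochberg adjustment over all genes tested, threshold 0.05). The difference between type B and type A nuclei was tested as an interaction, and each bulk time was fitted on its own. Each SE is the size of the log2 difference divided by the square root of the edgeR F value. It is not a separate estimate of the spread between mice. The main fits of the nuclei left 2 residual degrees of freedom. DESeq2 1.42.0, its size factors, no filter on low counts, thinning of nuclei, leaving out each mouse, the mitochondrial share as a covariate and the replicate block were alternatives. Leaving out nuclei with mixed markers was chosen after seeing the data. All 298 genes of the lists were in the nucleus table.

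The labels put nucleus replicate 1 of both groups in batch 3 and replicate 2 in batch 4, so the number pairs the mice by batch. Deviations of same-numbered mice from their group means correlated at r 0.693 over 8228 genes in type B nuclei and 0.751 over 8778 genes in type A nuclei. The bulk libraries at 24 h are batch 1 and those at 48 and 72 h batch 2.

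Genes named for UNx against sham were the 10 with the lowest p in each direction among genes with a mean of at least 100 CPM and groups that did not overlap, without predicted genes. Leading genes were the 20 with the largest ratio of the class to the next class of 50 or more nuclei, with 50 or more UMIs. Any listed gene called in the nuclei was named. The genes with the highest level of a list were not always named. Nedd4l led the receptors and regulators with 3829 UMIs over the class. Foxp1 led the transcription factors and Notch genes with 3165 UMIs. Casr, Jag1 and Dll1 were named from these lists after their values were seen. Bulk symbols were given to 28340 of 28467 genes. Intervals and the limit of 3 counts for a gene not detected cover counting error only.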

Additional observations from a re-analysis of the deposited data

Results flagged for a closer look

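Among 74 groups of 6 bulk libraries examined for type B marker and leading genes, 2 held a library far from the other 5, where chance gives about 1 in 20 groups. Insrr in sham replicate 6 at 48 h stood at 14.2 CPM, below the nearest library at 17.7 and the highest at 18.9 CPM, so that its gap was 0.741 of the range of the group, above Dixon's 95% critical value. Irs1 in sham replicate 1 at 24 h stood at 19.9 CPM, above the nearest library at 15.6 and the lowest at 13.9 CPM, a gap of 0.714 of the range.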

How the results depend on the processing

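In type B nuclei edgeR called 0 genes, 5 with no filter on low counts, 52 with the replicate block and 17 with the block and without mixed nuclei. Leaving out each mouse gave 0 each time. The cause of these differences was not tested, and the block left 1 residual degree of freedom. The difference between type B and type A nuclei gave 0 genes, 11 with no filter, 21 with the replicate block, 11 with the block and without mixed nuclei, and 0 to 36 when each mouse was left out. Of the type B markers in bulk, 0 were called at 24 h and 0 at 48 h with the mitochondrial share as a covariate, and 0 at 48 h without UNx replicates 1 to 5, a fit of fewer samples. Over all genes these fits called 609, 0 and 0.

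When each mouse was left out, the log2 difference in the nuclei ran from −0.26 to 0.69 for Slc26a4 (−0.13 without sham replicate 2), −0.59 to 0.93 for Slc4a9, −0.53 to 0.19 for Insrr (0.08 without sham replicate 1), −0.95 to 1.23 for Hmx2, −0.79 to 0.78 for Sctr (−0.26 without sham replicate 2) and −1.25 to 0.86 for Oxgr1 (0.15 without UNx replicate 2). Slc4a9 also stood at −0.014 with the block and without mixed nuclei. In bulk, 5 values turned: Slc4a9 at 24 h to 0.047 with the mitochondrial covariate, Hmx2 at 48 h to −0.077 with it and −0.12 without UNx replicates 1 to 5, and Oxgr1 at 48 h to −0.30 and −0.24 in those fits.

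Over the genes of type B nuclei that were named, 324 values kept direction and side of the threshold, 16 passed it only under the alternative and 11 turned. In bulk 28 kept both and 4 no longer passed. Bulk replicate numbers carry no label of a shared animal or batch: same-numbered libraries correlated at −0.196 to 0.0603 at 24 h, −0.174 to 0.0739 at 48 h and −0.356 to 0.138 at 72 h, with 2 of 6 pairs over 0.1 at 72 h. Those correlating best with their own number were 1 UNx library at 48 h and 1 sham and 1 UNx library at 72 h. The replicate block gave 2, 1 and 0 calls of type B markers at the 3 times. With 161 nuclei over 4 mice, genes below the filter on low counts could not be tested.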
